A study of Homo sapiens with 4 samples.

Results

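Intronless protein-coding genes were examined as a class in ATAC-seq promoter counts from MORC2 knock-out (KO) and wild-type (WT) HEK293T cells. The class held 46 genes, fixed as a list of symbols, whose coding sequence is known to have no intron. They include retrogenes, copies made when a spliced mRNA was reverse transcribed and inserted elsewhere in the genome, and regulators whose genes are compact by ancestry. All 46 had a row in the promoter table of 28775 genes, and all 46 were among the 27647 rows that passed the filter on low counts. The list was drawn up with results of the same KO and WT comparison known, and TSPYL1 and KBTBD7 were named in it because they rise in KO. The KO and WT values of the 46 genes are therefore given as a description, with no test.

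HEK293T is an aneuploid human embryonic kidney line that carries the SV40 large T antigen. The 2 WT libraries came from independent replicates. The 2 KO libraries came from bulk cell pools made by electroporating Cas9 protein with a MORC2-targeting sgRNA, sgRNA 1 for KO replicate 1 and sgRNA 2 for KO replicate 2. The guide and the replicate therefore cannot be told apart within KO, no clone was isolated, and a pool may keep unedited alleles. Each library was made from nuclei tagged by Tn5 transposase, which cuts and marks open DNA, so a promoter's count measures its accessibility. In a bulk library, fewer cells with an open promoter and a promoter less open in every cell cannot be told apart.

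MORC2 is a DNA-compacting ATPase of the GHKL family that works with the HUSH complex, which holds TASOR, MPP8 and periphilin and brings the histone methyltransferase SETDB1 to chromatin. HUSH is known for silencing LINE-1 elements, retrogenes and other long transcribed sequences that lack introns, and introns protect a transcript's gene from it. Many retrogenes are expressed mainly in testis or brain, often as autosomal substitutes for an X-linked source gene that is shut off in meiosis.

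Library totals ran from 9435801 to 15152636 counts, the median promoter had 132 to 250 counts, and 4 libraries limit every estimate of spread. Reads of the mitochondrial genome took 31.8% to 35.1% of the counts in 3 libraries and 20.6% in KO replicate 2, the deepest library, which therefore stood apart. The promoter of MORC2 itself had 247 and 267 counts in WT and 403 and 639 in KO, a log2 fold change of 0.43 ± 0.087 (SE), which does not check the edit because a small change in the coding sequence leaves the promoter in place. The mesenchymal genes VIM and CDH2, which this line is known to express, had WT promoter levels of 74.8 and 57.7 CPM (counts scaled to library size by TMM), whereas the kidney factor PAX2 stood at 7.16. Markers of other tissues, PTPRC (blood), CD3E (T cells) and ALB (liver), had 1.71, 2.36 and 2.05 CPM.

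Promoter sequences of 9 members are shown because the description below turns on them: members called higher in KO, a near-identical pair, the member with the highest WT level and a testis retrogene. Each is the 150 bases just upstream of the RefSeq start site on GRCh38.p14, read 5′ to 3′ on the gene's strand. Capitals mark, on either strand, 5 short motifs. They are CCAAT, the GC box GGGCGG with its reverse complement CCGCCC, the cAMP-response half-site TGACGT, the ETS core TTCCGG with its reverse complement CCGGAA, and the palindrome TCGCGA. The last was added to the search after the sequences had been read. The counts themselves were made on T2T-CHM13, so these coordinates place the reference windows and not the counted ones.

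TSPYL1 (chr6:116279931-116280080, minus strand) and TSPYL4 (chr6:116254076-116254225, minus strand) are neighbours on chromosome 6. NAP1L3 (chrX:93673579-93673728, minus strand), KBTBD6 (chr13:41132803-41132952, minus strand) and PURB (chr7:44885531-44885680, minus strand) are further members called higher.
TSPYL1: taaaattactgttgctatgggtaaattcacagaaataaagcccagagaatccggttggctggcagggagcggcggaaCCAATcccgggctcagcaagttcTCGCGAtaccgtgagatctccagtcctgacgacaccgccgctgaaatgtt
TSPYL4: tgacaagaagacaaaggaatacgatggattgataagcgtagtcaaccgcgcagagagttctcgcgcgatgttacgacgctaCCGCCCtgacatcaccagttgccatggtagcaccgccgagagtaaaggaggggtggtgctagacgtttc
NAP1L3: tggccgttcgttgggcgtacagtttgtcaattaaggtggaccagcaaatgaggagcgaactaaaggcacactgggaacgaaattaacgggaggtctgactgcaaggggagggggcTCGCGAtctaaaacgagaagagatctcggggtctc
KBTBD6: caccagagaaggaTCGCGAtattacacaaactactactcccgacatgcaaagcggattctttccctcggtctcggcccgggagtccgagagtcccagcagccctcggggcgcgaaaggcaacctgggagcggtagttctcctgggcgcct
PURB: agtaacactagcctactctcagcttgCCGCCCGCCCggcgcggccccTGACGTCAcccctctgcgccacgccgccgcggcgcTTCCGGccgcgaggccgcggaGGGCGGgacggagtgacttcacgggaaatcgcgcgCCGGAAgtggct

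ZXDA (chrX:57910459-57910608, minus strand) and ZXDB (chrX:57591861-57592010, plus strand) are X-linked copies of each other. JUN (chr1:58784048-58784197, minus strand) had the highest WT level of the class, and PGK2 (chr6:49787286-49787435, minus strand) is a testis retrogene with a low one.
ZXDA: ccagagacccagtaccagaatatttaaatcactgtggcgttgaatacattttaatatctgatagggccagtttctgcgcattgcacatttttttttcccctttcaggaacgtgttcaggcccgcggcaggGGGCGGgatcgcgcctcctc
ZXDB: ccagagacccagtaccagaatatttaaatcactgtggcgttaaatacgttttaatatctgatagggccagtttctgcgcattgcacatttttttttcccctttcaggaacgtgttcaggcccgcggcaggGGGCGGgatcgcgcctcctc
JUN: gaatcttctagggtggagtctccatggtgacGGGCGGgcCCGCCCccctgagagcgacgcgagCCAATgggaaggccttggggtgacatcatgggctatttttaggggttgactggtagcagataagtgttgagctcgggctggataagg
PGK2: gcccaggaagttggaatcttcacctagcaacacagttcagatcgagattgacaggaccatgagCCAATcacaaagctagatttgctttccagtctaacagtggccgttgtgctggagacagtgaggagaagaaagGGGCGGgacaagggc

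Across the class, 10 of 46 promoters were called higher in KO and 0 lower, a call being an adjusted p under 0.05 in edgeR's quasi-likelihood test over all promoters. That is 21.7% of members, beside 3.45% of all tested promoters called higher (4.06% of protein-coding ones) and 0.995% called lower. Because the list was made from this comparison, nothing is read from that difference. Without TSPYL1 and KBTBD7, 8 of 44 members (18.2%) were called. The paper, which tested small windows and summarised them per promoter, reported far fewer differentially accessible genes in KO than were called here. Its genes were not compared with these calls. The members' log2 fold changes (KO over WT) ran from -0.50 to 0.59 with a median of 0.070. The median was -0.017 over all tested promoters and 0.0077 over protein-coding ones. Of the 46, 28 lay above 0 (60.9%) and 18 below. Of all tested promoters 46.7% lay above 0, and of protein-coding ones 51.7%. The groups did not overlap at 28 members, beside 50.6% of all tested promoters, with KO above WT at 20 (beside 25.2%) and below it at 8 (beside 25.4%). The call count depended on KO replicate 2, since leaving that library out kept 2 members called (TSPYL1 and KBTBD7) and cut the share of all promoters called from 4.45% to 0.148%. Without WT replicate 2, ZXDB and PURB were called besides these, 4 in all, and 0.827% of all promoters were called. Without KO replicate 1, TSPYL4, KBTBD6 and NAP1L2 lost their calls, and NAP1L2 also did without WT replicate 1.

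**Figure D1:**
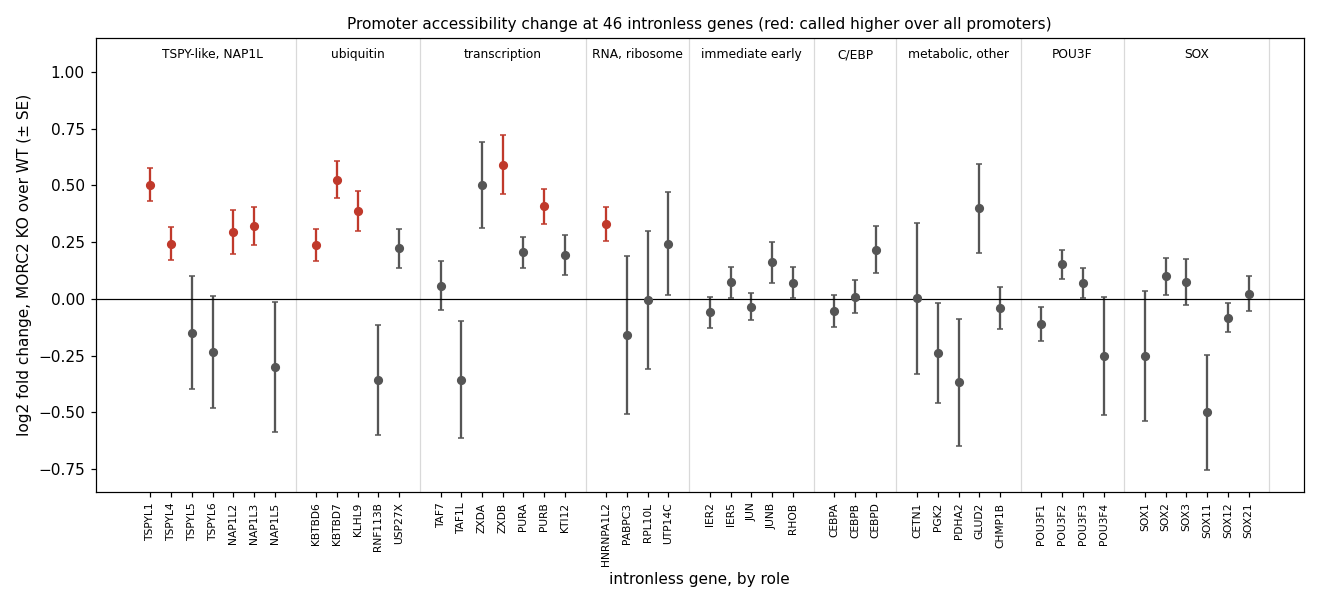
Log2 fold change of promoter accessibility (KO over WT, y axis) for each of the 46 intronless genes, grouped by role along the x axis, with bars of 1 SE from the edgeR fit and members called higher in red. The 10 red points lie between 0.24 and 0.59, and none of them is a SOX, POU3F, C/EBP or immediate early gene.

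The TSPY-like and nucleosome assembly family, whose proteins share the fold of the histone chaperone NAP1, held 4 of the 10 called members among its 7 genes. This stands beside 3.45% of all tested promoters called higher. Nothing is read from this or any later count by family, since the list was made from this comparison. TSPYL1 (NCBI Gene 7259, chromosome 6) had 403 and 347 counts in WT replicates 1 and 2 and 635 and 955 in KO replicates 1 and 2. After scaling these were 41.9 and 38.4 CPM in WT and 58.2 and 56.0 in KO, so both KO libraries stood well above both WT libraries. Its mean rose from 40.1 ± 2.42 (SD, n = 2) to 57.1 ± 1.58 CPM, a log2 fold change of 0.50 ± 0.074 (SE). TSPYL1 was named in the rule for this rise.

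Its neighbour TSPYL4 (NCBI Gene 23270) had 466 and 405 counts in WT and 618 and 924 in KO. The KO libraries again lay above the WT ones, by less, with 46.6 ± 2.50 CPM in WT, 55.4 ± 1.77 in KO and a log2 fold change of 0.24 ± 0.072. TSPYL4 cannot be separated from DSE, the dermatan sulfate epimerase gene beside it, since their counts differed by at most 0.247% in any library, so that these rows carry almost the same values. TSPYL1's counts were up to 14.3% from those of TSPYL4, and their fold changes differed.

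NAP1L2 and NAP1L3 are X-linked histone chaperone genes expressed in neurons. NAP1L2 (NCBI Gene 4674) had 227 and 205 counts in WT and 308 and 486 in KO, or 23.1 ± 0.614 against 28.4 ± 0.176 CPM, with a log2 fold change of 0.29 ± 0.096. NAP1L3 (NCBI Gene 4675) had 314 and 260 counts in WT and 415 and 660 in KO, or 30.7 ± 2.70 against 38.4 ± 0.452 CPM, with a log2 fold change of 0.32 ± 0.084. At both, the KO libraries lay above the WT libraries. NAP1L3 and the neighbouring FAM133A differed by at most 2.55% in any library. The call of NAP1L2 held in 2 of 15 alternative analyses, the fewest of the 10 members, although its value stayed positive in all 15.

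The other 3 members of the family had little signal in either group. TSPYL5, which restrains p53 through the deubiquitinase USP7, stood at 3.62 ± 0.896 CPM in WT and 3.24 ± 0.306 in KO. TSPYL6, a testis gene, stood at 3.76 ± 0.474 and 3.20 ± 0.137. NAP1L5, an imprinted gene expressed from the paternal allele, had 25 and 27 counts in WT and 31 and 32 in KO, or 2.79 ± 0.279 against 2.36 ± 0.684 CPM. None of the 3 was called, and the groups overlapped at TSPYL5 and NAP1L5.

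**Figure D2:**
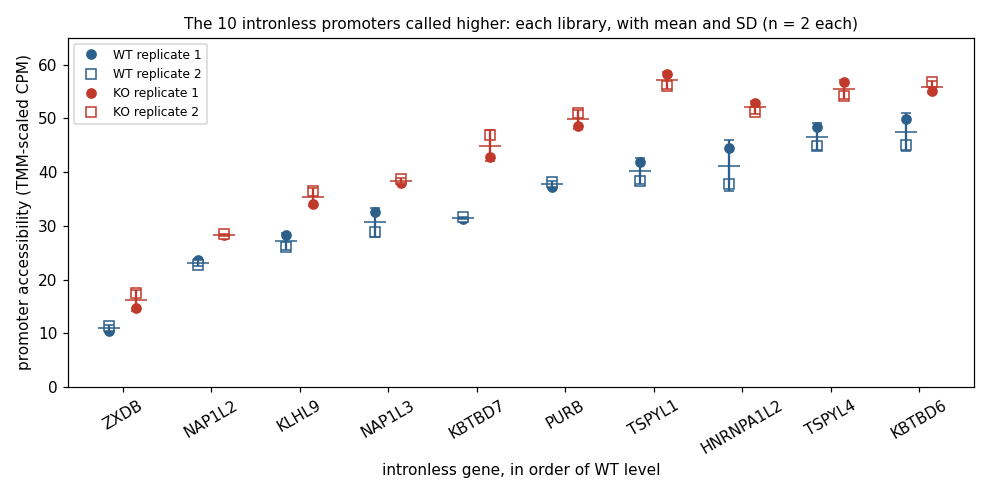
TMM-scaled CPM (y axis) in each of the 4 libraries at the 10 members called higher, ordered by WT level along the x axis, with WT in blue, KO in red, and bars for the mean and SD of 2 libraries. At every one of the 10 both KO points lie above both WT points, and the gap is widest at TSPYL1, with 40.1 against 57.1 CPM.

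Among the 5 ubiquitin pathway genes, 3 were called higher, beside 3.45% of all tested promoters. KBTBD6 and KBTBD7 are neighbouring genes on chromosome 13 whose products work together as substrate adaptors of the CUL3 ubiquitin ligase. KBTBD7 (NCBI Gene 84078) had 301 and 285 counts in WT and 467 and 800 in KO, or 31.3 and 31.6 CPM in WT and 42.8 and 46.9 in KO. The WT libraries were nearly equal and both KO libraries lay above them. Its mean rose from 31.4 ± 0.217 to 44.9 ± 2.88 CPM, a log2 fold change of 0.52 ± 0.081, and it too was named in the rule for its rise. MTRF1, the next gene, had counts within 18.4% of KBTBD7's but a log2 fold change of 0.033, so the KBTBD7 row did not simply repeat its neighbour.

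KBTBD6 (NCBI Gene 89890) had 481 and 406 counts in WT and 600 and 967 in KO, or 47.5 ± 3.52 against 55.9 ± 1.18 CPM. KO lay above WT by a smaller step than at KBTBD7, a log2 fold change of 0.24 ± 0.072. Its divergent noncoding partner KBTBD6-DT had counts within 0.246% of it in every library, so accessibility cannot be assigned to either gene. KLHL9 (NCBI Gene 55958, chromosome 9), a CUL3 adaptor that acts on Aurora B in mitosis, had 272 and 235 counts in WT and 372 and 623 in KO. Both KO libraries were higher, with 27.1 ± 1.57 CPM in WT, 35.3 ± 1.71 in KO and a log2 fold change of 0.39 ± 0.088.

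USP27X, an X-linked deubiquitinase gene, was not called, with 29.5 ± 2.75 CPM in WT, 34.3 ± 1.93 in KO and a log2 fold change of 0.22 ± 0.087. Its counts were within 1.30% of those of USP27X-DT. RNF113B, a RING finger gene, had 35 and 41 counts in WT and 30 and 59 in KO, or 4.09 ± 0.641 against 3.11 ± 0.501 CPM. After scaling the KO pair lay wholly below the WT pair, with a log2 fold change of -0.36 ± 0.24, and it was not called.

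The general transcription and nucleic acid binding genes held 2 called members of 7, beside 3.45% of all tested promoters called higher. ZXDB (NCBI Gene 158586), an X-linked zinc finger gene, had 100 and 103 counts in WT and 161 and 299 in KO, or 10.4 and 11.4 CPM in WT and 14.8 and 17.5 in KO. Its groups did not overlap, and its log2 fold change of 0.59 ± 0.13 was the highest of the 46. Its copy ZXDA had 57 and 45 counts in WT and 78 and 139 in KO, with 5.45 ± 0.661 CPM in WT and 7.65 ± 0.705 in KO. KO again lay above WT, with a log2 fold change of 0.50 ± 0.19, but ZXDA was not called. The RefSeq windows of ZXDA and ZXDB were 94.7% identical, at 288 of 304 positions when the whole windows, which reach beyond the stretches printed above, were aligned. The authors kept only read pairs with a high mapping quality, so reads from either copy may have been lost or split, and the level of each is uncertain.

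PURB and PURA encode proteins that bind purine-rich single-stranded DNA. PURB (NCBI Gene 5814, chromosome 7) had 359 and 345 counts in WT and 530 and 871 in KO. Both KO libraries were higher, with 37.7 ± 0.657 CPM in WT, 49.8 ± 1.74 in KO and a log2 fold change of 0.41 ± 0.076. PURA had 56.1 ± 2.55 CPM in WT and 64.7 ± 0.389 in KO with no overlap, and its log2 fold change of 0.20 ± 0.069 was not called. KTI12, which acts with the Elongator complex in tRNA modification, was similar, with 28.5 ± 1.37 against 32.5 ± 0.350 CPM and a log2 fold change of 0.19 ± 0.089.

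TAF7, a TFIID subunit that restrains the TAF1 acetyltransferase, had 19.5 ± 2.25 CPM in WT and 20.2 ± 0.356 in KO, and its groups overlapped. TAF1L, a testis retrocopy of TAF1, had 33 and 33 counts in WT and 34 and 43 in KO, or 3.54 ± 0.161 against 2.82 ± 0.422 CPM. Its KO libraries lay below WT after scaling, with a log2 fold change of -0.36 ± 0.26, and it was not called.

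Of the 4 RNA and ribosome retrocopies, HNRNPA1L2 was called, beside 3.45% of all tested promoters called higher. HNRNPA1L2 (NCBI Gene 144983, chromosome 13), a retrocopy of the splicing regulator HNRNPA1, had 429 and 342 counts in WT and 577 and 874 in KO. Both KO libraries lay above WT, with 41.2 ± 4.72 CPM in WT, 52.1 ± 1.18 in KO and a log2 fold change of 0.33 ± 0.074. Its WT SD was the largest among the 10 called members. UTP14C, a ribosome biogenesis retrogene required in spermatogenesis, had 3.86 ± 0.176 CPM in WT and 4.51 ± 0.417 in KO, a log2 fold change of 0.24 ± 0.23. PABPC3, a testis poly(A)-binding protein gene, had 19 and 13 counts in WT and 15 and 28 in KO. RPL10L, which stands in for the X-linked RPL10 in male meiosis, had 17 and 25 counts in WT and 18 and 45 in KO. At both of these the groups overlapped, and no difference was detectable at this depth.

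The 5 metabolic, centriolar and membrane genes held 0 called members, beside 3.45% of all tested promoters called higher. GLUD2, a glutamate dehydrogenase retrogene of apes expressed in brain and testis, had 55 and 42 counts in WT and 71 and 121 in KO, or 5.18 ± 0.749 against 6.80 ± 0.412 CPM. Its KO libraries lay above WT, with a log2 fold change of 0.40 ± 0.19. PDHA2, the testis form of a pyruvate dehydrogenase subunit, had 26 and 29 counts in WT and 20 and 44 in KO, or 2.96 ± 0.362 against 2.21 ± 0.527 CPM. Here KO lay below WT, with a log2 fold change of -0.37 ± 0.28.

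PGK2, the testis phosphoglycerate kinase, also lay lower in KO, with 4.83 ± 0.371 CPM in WT, 4.14 ± 0.376 in KO and a log2 fold change of -0.24 ± 0.22. CETN1, a testis centrin, had 17 and 17 counts in WT and 20 and 31 in KO, which is 1.82 CPM in WT and 1.83 in KO. CHMP1B, a subunit of the ESCRT-III membrane scission complex, had 27.5 ± 1.63 CPM in WT and 26.9 ± 0.520 in KO, with overlap.

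The remaining 18 members are developmental and immediate early genes, and 0 of them were called, beside 3.45% of all tested promoters called higher. JUN, a subunit of the AP-1 transcription factor, had the highest WT level of the class, with 1558 and 1500 counts in WT and 1711 and 2774 in KO. That is 164 ± 3.07 CPM in WT and 160 ± 4.06 in KO, so its groups overlapped. The AP-1 partner JUNB had 27.2 ± 1.92 CPM in WT and 30.6 ± 1.98 in KO, without overlap. IER2 and IER5, induced within minutes of a growth signal, had log2 fold changes of -0.059 and 0.073, and RHOB, an inducible small GTPase, 0.070. The C/EBP factors CEBPA and CEBPB, which drive myeloid, fat and liver differentiation, had 51.7 and 51.2 CPM in WT and log2 fold changes of -0.053 and 0.0096. CEBPD had 20.7 ± 1.33 CPM in WT and 23.8 ± 1.69 in KO, and its log2 fold change of 0.22 ± 0.10 was the highest of the 18.

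The POU3F genes encode factors of neural and glial development. POU3F2 had the second highest WT level of the class, with 985 and 802 counts in WT and 1132 and 1847 in KO, or 102 and 88.8 CPM in WT and 104 and 108 in KO. The upper WT library almost reached the lower KO library, and the log2 fold change was 0.15 ± 0.063. POU3F3 stood at 72.9 CPM in WT and 76.6 in KO, and POU3F1 at 45.4 and 42.5. POU3F4, an X-linked gene of the inner ear, was nearly closed at 3.34 and 2.80 CPM.

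Of the SOX genes, SOX12 was the third highest member in WT, with 838 and 847 counts in WT and 967 and 1410 in KO. The groups overlapped at 90.4 ± 4.80 and 85.7 ± 4.25 CPM. SOX2 and SOX3, which mark neural progenitors, had 35.0 and 22.1 CPM in WT and log2 fold changes of 0.099 and 0.076, and SOX21, which opposes them, 41.7 CPM and 0.023. SOX1, the remaining gene of the SOX2 subfamily, was nearly closed at 2.73 CPM in WT and 2.32 in KO. SOX11, a factor of immature neurons, had 38 and 35 counts in WT and 36 and 41 in KO, or 3.91 ± 0.0494 against 2.85 ± 0.635 CPM. KO lay below WT, and its log2 fold change of -0.50 ± 0.25, the lowest of the 46, was not called.

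The fold change of all promoters depended on their level, so members were read against promoters of like abundance. Tested promoters were divided into 10 classes of equal size by average log2 CPM, numbered from the lowest. The 16 members in classes 1 to 4, at 1.71 to 5.45 CPM in WT, had a median log2 fold change of -0.24, beside -0.23 for the 11058 promoters of those classes, and 0 were called in either direction, beside 0.0452% of those promoters called higher and 1.56% called lower. The 29 members in classes 6 to 10, at 19.5 to 164 CPM, had a median of 0.15 beside 0.064, and 9 were called higher beside 6.63% and 0 lower beside 0.557%. ZXDB was the single member in class 5. The members' median distance from the median of their own class was 0.058, and 29 of 46 lay above it. Of the low members 4 lay above 0, namely ZXDA, GLUD2, UTP14C and CETN1. Under loess offsets fitted on abundance, ZXDA (log2 fold change 0.65) was called as well, GLUD2 stood at 0.56 without a call, and all 12 low members with negative values took higher ones. Of these 12, 6 then lay above 0 (TSPYL5, TSPYL6, PABPC3, RPL10L, POU3F4 and SOX1), and the others stayed below it, with SOX11 at -0.25, RNF113B at -0.12, TAF1L at -0.10 and PDHA2 at -0.098.

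Within classes 6 to 10 the members divided by role, a division drawn after the values were seen and therefore given with no test. Of all promoters in these classes, 6.63% were called higher. The 14 members that were not developmental or immediate early genes had a median log2 fold change of 0.27, 13 lay above 0, and 9 were called. Nothing is read from that count, since the list was made from this comparison. The 15 developmental and immediate early genes in the same classes had a median of 0.070, 10 lay above 0, and 0 were called. Their WT levels also differed, with medians of 31.1 and 51.7 CPM.

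**Figure D3:**
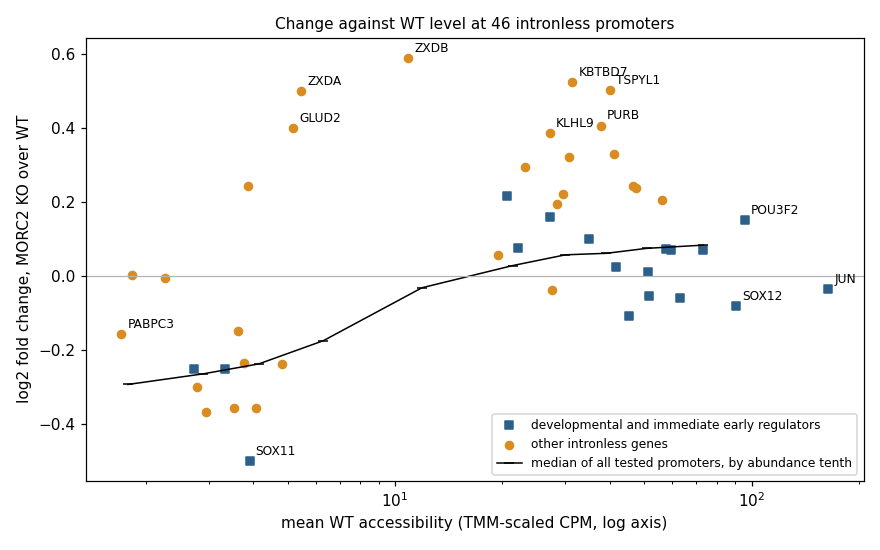
Log2 fold change (KO over WT, y axis) against mean WT level (TMM-scaled CPM, log x axis) for the 46 members, with developmental and immediate early regulators as blue squares, other intronless genes as orange circles, and the black line joining the median of all tested promoters in each of the 10 abundance classes. Orange points above 19 CPM mostly sit above the line, from PURA at 56.1 CPM down to NAP1L2 at 23.1 CPM, whereas blue squares lie on both sides of it.

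Similar counts in neighbouring rows may limit how many members were separate observations. The comparison used counts and not positions, so a similar count alone does not show shared fragments. The share of all rows with such a neighbour was not computed. Of the 46, 21 had a neighbour among the 3 nearest rows on either side whose count was within 25% in every library, and 11 had a neighbour within 10%. Besides TSPYL4, KBTBD6, NAP1L3 and USP27X, the closest were SOX21 with SOX21-AS1 (at most 0.833% apart), CEBPA with CEBPA-DT (1.01%) and POU3F1 with MIR3659HG (1.57%). Accessibility at rows as close as these cannot be assigned to the intronless gene alone. The 21 also include KBTBD7, whose log2 fold change of 0.52 was unlike the 0.033 of its neighbour MTRF1.

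Levels were next compared with source genes or family members of the intronless genes, a list of 19 genes that form 26 pairs with members. In WT the intronless member had the lower promoter level in 22 of 26 pairs. Over all 26 pairs the relative's level was a median of 6.46-fold the member's, and more than 5-fold in 14. PABPC1, a general poly(A)-binding protein gene, stood 45.0-fold above PABPC3. CETN2 stood 34.5-fold above CETN1, and RPL10 27.9-fold above RPL10L. GLUD1 exceeded GLUD2 13.1-fold and PDHA1 exceeded PDHA2 10.1-fold. TAF1 had 56.6 CPM beside 3.54 for TAF1L, and PGK1 had 53.0 beside 4.83 for PGK2. These testis or brain retrogenes had little signal in this kidney line, whereas their source genes, with housekeeping roles, were open. Only read pairs of high mapping quality were kept, so reads from a retrocopy that resembles its source may have been lost. This was not tested. HNRNPA1 stood 2.49-fold above HNRNPA1L2, and both were open.

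Some of the called members had WT levels near those of their relatives, which is given with no test, since low promoters were rarely called higher. TSPYL2, an X-linked family member, had 42.1 CPM in WT beside 40.1 for TSPYL1, and PURG had 37.3 CPM beside 37.7 for PURB. TSPYL2 had a log2 fold change of 0.048 and PURG 0.22. KLHL13, the partner of KLHL9, had 0.074, and NAP1L1, the ubiquitous family member of NAP1L2 and NAP1L3, had 0.15. ZXDC, on an autosome, stood 5.48-fold above ZXDB and had a log2 fold change of -0.070. In 14 of 26 pairs the intronless member had the higher fold change, and the whole list of 19 had a median of 0.10 with 15 above 0. RNF113A alone was called, with 38.8 CPM in WT, 50.9 in KO and a log2 fold change of 0.39 ± 0.075 (edgeR quasi-likelihood, adjusted p = 1.6e-04). RNF113A, a spliceosome-associated gene on the X chromosome, is itself a retrogene without introns, so it belongs to both classes. By the rule on neighbouring counts used for members, RNF113A had a similar neighbour, NDUFA1, so its rise may not be its own alone. TSPYL2 (with FAM156A and KANTR), PURG (with WRN) and NAP1L1 (with OSBPL8) also had such neighbours, whereas KLHL13 and ZXDC had none. Shared fragments were not tested.

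**Figure D4:**
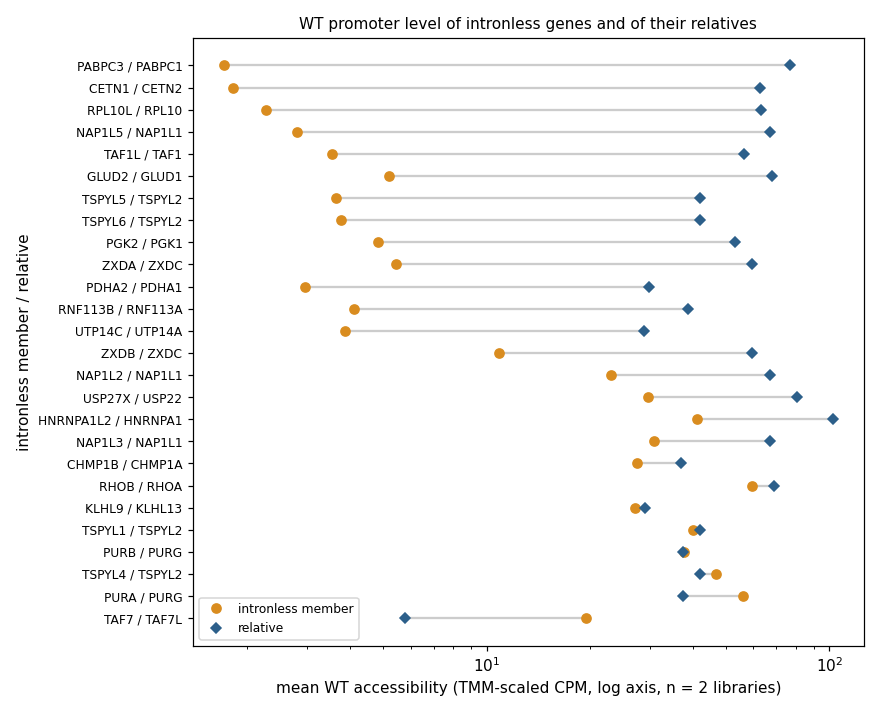
Mean WT promoter level (TMM-scaled CPM, log x axis, n = 2 libraries) of each intronless member (orange circle) and its source gene or family member (blue diamond), 1 pair per row, ordered by their ratio. The member is to the left in 22 of 26 rows, and the distance is widest for PABPC3 and PABPC1 at 1.71 and 76.8 CPM.

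A second list of 43 intronless genes outside the class, mostly FOX, bHLH and receptor genes, gave a wider view. Of these, 3 were called higher (6.98%, beside 3.45% of all tested promoters) and 2 lower (beside 0.995%), and the median log2 fold change was 0.018. RNF113A, RAP2B (a small GTPase, 0.21 ± 0.061, adjusted p = 0.027) and NEUROG2 (a proneural factor, 0.23 ± 0.074, adjusted p = 0.043) were higher by edgeR's quasi-likelihood test. JUND, the third JUN family gene, fell by 0.30 ± 0.068 (adjusted p = 0.0016), with 69.5 CPM in WT and 56.2 in KO. CLDN4, a tight junction gene, fell by 0.58 ± 0.16 (adjusted p = 0.017), with 10.9 CPM in WT and 7.50 in KO. The other 38 did not pass the test in either direction. Of the called genes, RNF113A (with NDUFA1), NEUROG2 (with NEUROG2-AS1, ZGRF1 and LARP7) and JUND (with MIR3188) had neighbours of similar count by the members' rule. Their changes may therefore not belong to the intronless gene alone. RAP2B and CLDN4 had no such neighbour. RNF113A stayed called whichever library was left out, whereas JUND kept its call only without WT replicate 1, RAP2B only without KO replicate 1, CLDN4 only without KO replicate 1 or WT replicate 2, and NEUROG2 in none of those 4 fits. By DESeq2 0 of the 43 genes were called, and 5 had an unadjusted p under 0.05. This list, too, was made with earlier results of these data known.

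Promoter sequence was compared over the 38 members with a RefSeq window, running from 250 bases before the start to 50 after it. Their median GC content was 61.7%, the same as for all 19083 tested promoters with a window, which are 69.0% of those tested and too few to stand for the whole table. The 9 called members with a window had a median of 56.3% and the 29 others 63.3%, while the 16 developmental and immediate early genes stood at 67.8% and the other 22 at 57.7%. POU3F1 was the most GC-rich member at 82.3%, and UTP14C the least at 40.3%. The observed over expected CpG ratio had a median of 0.80 in members and 0.73 in all promoters. Over all promoters, the median fold change centred on abundance was 0.029 in the lowest of 10 GC classes and -0.026 in the highest. The members' median distance from their abundance class was 0.058. The part of GC content in the members' changes and in their division by role was not tested. Centred on both abundance and GC, the median member lay at 0.044, and 23 of 38 lay above 0.

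Motif content is given as counts, with no test. CCAAT was found in 13 of 16 developmental and immediate early promoters (81.3%), in 6 of the 22 others (27.3%) and in 36.0% of all promoters. The TSPYL1, JUN and PGK2 stretches printed above each hold it once. TCGCGA was found in 6 of 38 members, namely TSPYL1, TSPYL6, NAP1L3, KBTBD6, TAF7 and CEBPA, or 15.8%, beside 4.01% of all promoters. Of those 6, 3 were called and 3 were not, and PURB and ZXDB were called without it. TTCCGG was found in 12 of 38 (31.6%, beside 21.3% of all promoters), GGGCGG in 25 (65.8%, beside 54.3%), TGACGT in 4 (10.5%, beside 9.34%), TATAAA in 4 (10.5%, beside 9.91%) and TGACTCA in 2 (5.26%, beside 4.23%). In the PURB stretch TGACGT overlaps its own reverse complement. A match is a string of letters and not a measured binding site.

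**Figure D5:**
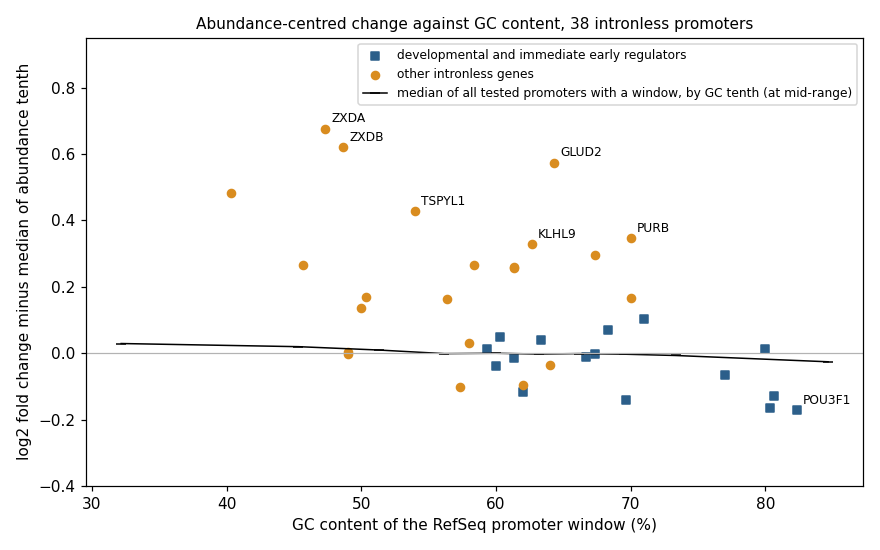
Log2 fold change minus the median of the member's abundance class (y axis) against the GC content of the RefSeq promoter window (percent, x axis) for the 38 members with a window, in the colours of the plot of change against WT level, with the black line joining medians of all tested promoters by GC class. Blue squares lie between 59.3% and 82.3% GC, and the orange points furthest above the line are ZXDA and ZXDB at 47.3% and 48.7% GC and GLUD2 at 64.3%.

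Members were spread over chromosomes unevenly, with 8 on chromosome 13 and 8 on the X chromosome. On chromosome 13, KBTBD6, KBTBD7 and HNRNPA1L2 were called, while 7.14% of all its tested promoters were called higher and their median log2 fold change was 0.044. On the X, NAP1L2, NAP1L3 and ZXDB were called, beside 3.39% of all its promoters and a median of -0.0089. Chromosome 6 held 4 members with 2 called, TSPYL1 and TSPYL4, beside 6.02%. IER2, JUNB and CEBPA lie on chromosome 19, where the median of all promoters was -0.12. Centred on both abundance and chromosome, the median member lay at 0.027. HEK293T is aneuploid, and the part of copy number in these chromosome-wide medians was not tested.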

How the data were processed

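ATAC-seq was analysed from 4 libraries of HEK293T cells, 2 WT and 2 MORC2 KO, grouped by their GEO labels. Per the study's methods, the authors trimmed paired reads, aligned them with bowtie2 to T2T-CHM13, kept proper pairs of high mapping quality and removed duplicates with Picard. The deposited values are raw counts per promoter, 1 row per NCBI Gene ID. The study's methods describe counting of fragment midpoints in small windows with csaw, whose results were carried over to promoters, taken as a fixed window around each start site, and the submitters' processing notes name featureCounts (Subread 2.0.6). Which of these made the deposited promoter counts is not given in the sources used here. Totals ranged from 9435801 to 15152636. Gene IDs were matched to RefSeq symbols for 28763 of 28775 rows.

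Rows with low counts were removed with filterByExpr, which left 27647, and libraries were scaled by TMM. KO and WT were compared with edgeR 4.0.16 (quasi-likelihood F-test, R 4.3.3) with Benjamini-Hochberg adjustment over all rows and a threshold of 0.05. Standard errors are the log2 fold change over the square root of F. With 2 libraries a group, p-values measure only the spread between these samples. Same-numbered libraries did not deviate together (r = -0.00027 across promoters), so the numbers were not taken as pairs. A check on simulated counts recovered 80.5% of 200 changes of 0.6 in log2, planted at a mean count of at least 50. Its counts had the same dispersion at every promoter and no difference between guides. Every member's change was smaller than 0.6, so the check does not cover changes of that size. DESeq2 1.42.0 and limma 3.58.1 served the alternatives.

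The members and all lists were chosen with earlier results of these data known. All members were named, with counts in every library for those called, for those without overlap and a log2 fold change of at least 0.3 in size, and for the 3 highest and 3 lowest WT levels. Promoter windows came from RefSeq (GRCh38.p14) and were found for 38 of 46 members. Exon structure was not checked against the annotation. The WT peak list was not used, since its positions are on T2T-CHM13.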

Additional observations from a re-analysis of the deposited data

How the results depend on the processing

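The direction of the 10 called members was positive in every alternative, and of all members' values under the alternatives 595 stayed within 1 SE of the reported value and 75 moved by more. Among the 36 members not called, 21 changed sign in at least 1 alternative, 7 of them by total-count scaling (RPL10L, IER2, JUN, CEBPA, CHMP1B, POU3F1 and SOX12) and 11 by loess on abundance (TSPYL5, TSPYL6, PABPC3, RPL10L, IER5, RHOB, CEBPB, POU3F3, POU3F4, SOX1 and SOX21). The number of members called was 10, where 1229 promoters were called in all. It was 0 when libraries were scaled by total count alone (16 had an unadjusted p under 0.05, and 20 promoters were called in all). DESeq2's Wald test called 1 (TSPYL1, with 11 unadjusted), and only 7 promoters in all (0.0246%). With loess offsets on abundance it was 7 (391 promoters called in all). Loess offsets on abundance and GC content gave 6 of 38 (305 promoters in all, 1.6%). A mean count of at least 50 gave 7 of 34 (787 promoters in all, 3.97%), and a replicate block 7 (765 in all). Leaving out each library in turn left 1 library in a group. The number of members called then went up and down with the number called over all promoters, so nothing is read from it. TSPYL1 was called in 14 of 15 alternatives and KBTBD7 in 12 of 14. The members' median log2 fold change of 0.070 became 0.20 with total-count scaling, which moved the median of all promoters to 0.12, 0.14 with a mean count of at least 50, 0.045 with loess on abundance and GC content, 0.027 centred on chromosome, 0.044 centred on GC class, and 0.037 to 0.12 with a library left out. For the 43 other intronless genes, 5 called became 0 by total count (4 with an unadjusted p under 0.05) and 0 by DESeq2 (5 unadjusted), 2 with loess on abundance and with loess on abundance and GC content, 3 with a mean count of at least 50, with the edgeR 4 fit and with the replicate block, and 1 to 3 with a library left out, and their median of 0.018 became 0.15 with total-count scaling and -0.013 to 0.099 with a library left out. For the 19 source genes or family members, 1 called became 0 with total-count scaling (3 unadjusted) and with DESeq2 (1 unadjusted), and the median of 0.10 became 0.24 with total-count scaling, 0.023 with loess on abundance, 0.066 with a mean count of at least 50, 0.048 with loess on abundance and GC content, and 0.067 to 0.13 with a library left out. The members' median WT level of 4.77 log2 CPM became 4.71 by total count and 5.33 by nuclear total count. The fit on abundance and GC content and both centred values were chosen after seeing the data, and a reference window was found for 69.0% of all tested promoters, so the GC check is void for the whole table and limited to members. The cause of these changes was not tested. In abundance classes 1 to 4, 0.0452% of all promoters were called higher and 1.56% lower.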
